A study of Mus musculus with 20 samples.

Results

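The genes Ms4a4a, Ms4a4b, Ms4a4c, Ms4a4d, Ms4a6b, Ms4a6c, Ms4a6d and Ms4a7 were followed in mouse diaphragm after exposure of the pleural cavity to long or short fibers. They are 8 of the 34797 gene names on the array and were taken by symbol, with earlier results of these data known. They are read by 11 of the array's 55681 probes, and all 11 passed the filter on dim probes. Total RNA came from a piece of the diaphragm of female C57Bl/6 mice injected in the pleural cavity at 8 weeks of age, 1 array per mouse, and was taken 12 weeks later. The 5 groups held 4 mice each. Control mice received 0.5% BSA/saline, SFA mice shortened amosite asbestos and LFA mice long amosite asbestos (both 25 μg per mouse), and NTS mice short and NTL mice long carbon nanotubes (both 5 μg per mouse). All groups shared the vehicle, the sex, the age and the delay.

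Ms4a genes encode small proteins that cross the membrane several times. The best known member of the family is Ms4a1, which encodes the B cell antigen CD20. Ms4a4a, Ms4a6d and Ms4a7 are known from macrophages, where the MS4A4A protein sits beside the beta-glucan receptor dectin-1 (Clec7a), and Ms4a4b is known from T cells. The genes lie side by side on chromosome 19, in the order Ms4a7, Ms4a4a, Ms4a4c, Ms4a4b, Ms4a6c, Ms4a6b, Ms4a4d and Ms4a6d, and the outermost probes lie at chr19:11395903-11395962 (Ms4a7) and chr19:11661426-11661485 (Ms4a6d) on NCBI37. The probes of Ms4a7 and Ms4a6d are on the minus strand and the others on the plus strand.

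Each probe has 60 bases, and 30 of them are given for the probes on which the results turn, 5′ to 3′, as the files list them. They show that the printed stretches differ between the members and that 1 Ms4a4c probe holds a long repeat, written in capitals. The first 30 bases are given except for Ms4a4c probe 2, where bases 8 to 37 are shown.
Ms4a7: agcagagtacagctagacttgcctgaaatc
Ms4a4a: caaagtggattgatgccaccagaacaccaa
Ms4a4c probe 1: atcagcagtctaactctgaacactatcacc
Ms4a4c probe 2: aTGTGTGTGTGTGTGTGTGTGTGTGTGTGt
Ms4a4c probe 3: caacactttaacatcctccattaattgtat
Ms4a4b probe 2: cacttcattgcactggcttttgaggtgaat
Ms4a6c: tgtggcagctccatcatgattccacaggta
Ms4a6d: aatatcttaatgtgtgtattggttaatcag
No member's probe shared more than 9 consecutive bases with a probe of another member. Probes were compared with probes only, so binding to the transcripts of other members was not tested. Ms4a4c probe 2, at chr19:11500839-11500898, holds a TG repeat of 28 bases and shared at least 14 consecutive bases with 109 probes of other genes, the longest stretch being 31 bases. Of the other 10 probes, only Ms4a4a and Ms4a4b probe 1 shared such a stretch with any other gene, with 2 probes each. The 60 bases of the Ms4a4d probe span 1325 bases of the chromosome, so that they lie on both sides of an intron.

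The scanner software marked 53.0% to 68.1% of the spots of an array as well above background, and the 75th percentile of the signal, which served as each array's reference, ran from 294 (control replicate 2, the dimmest array) to 996. Of the 11 member probes, 10 were well above background on all 20 arrays, and Ms4a6b on 17. A level is given here as the log2 signal of a probe minus the log2 of its array's 75th percentile, and a change is a difference of mean levels. A probe was called when its change was at least 1, which is 2-fold, and its p in limma, adjusted by Benjamini-Hochberg over all 36920 probes tested, was under 0.05. The median change of all tested probes was -0.28 in LFA and -0.25 in NTL against control, or -0.08 and -0.09 after quantile normalization. Skeletal muscle markers, which define the labeled tissue, had a summed signal of 4490 to 6600 times the array reference in control. It was 3810 to 4480 in SFA, 3060 to 6450 in NTS, 2300 to 3160 in LFA and 2290 to 2610 in NTL. Liver markers varied between arrays of a group, with summed signals of 16.5 to 5300 in NTS and 17.2 to 3120 in LFA. In LFA their mean level relative to control was 6.2, -2.1, 6.7 and -1.9 in replicates 1 to 4. LFA replicates 1 and 3 were also the lower arrays of their group for Ms4a7, Ms4a6d, Ms4a6c and Ms4a4a. SFA replicates 2 and 3, at 6.1 and 4.0, were the lowest and the highest of their group for Ms4a4a and Ms4a6c. A link of the members to the liver signal was not tested.

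Ms4a genes were higher after long fibers. By the brightest probe of each gene, Ms4a7, Ms4a6c and Ms4a6d were called in LFA against control, and these genes and Ms4a4a in NTL against control, all of them higher. No member was called lower in any comparison. That makes 3 of 8 genes for LFA and 4 of 8 for NTL (4 and 5 of 11 probes), where 3.94% and 6.81% of all tested probes were called. The number of probes called in LFA, 1455, was 466 (1.26%) without LFA replicate 2 and 2639 (7.15%) without NTS replicate 4, and that in NTL, 2514, was 1328 (3.60%) with the slide as a block and 3102 (8.40%) without NTS replicate 4. The median change of the 8 genes was 1.86 for LFA and 2.06 for NTL. No member was called in SFA or NTS against control, where 0% and 0% of all probes were called, 843 and 1288 probes passed an unadjusted p of 0.05, and of the members only Ms4a4a in NTS did. In a bulk sample of tissue, more cells that express a gene and more RNA of it per cell cannot be told apart.

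**Figure D1:**
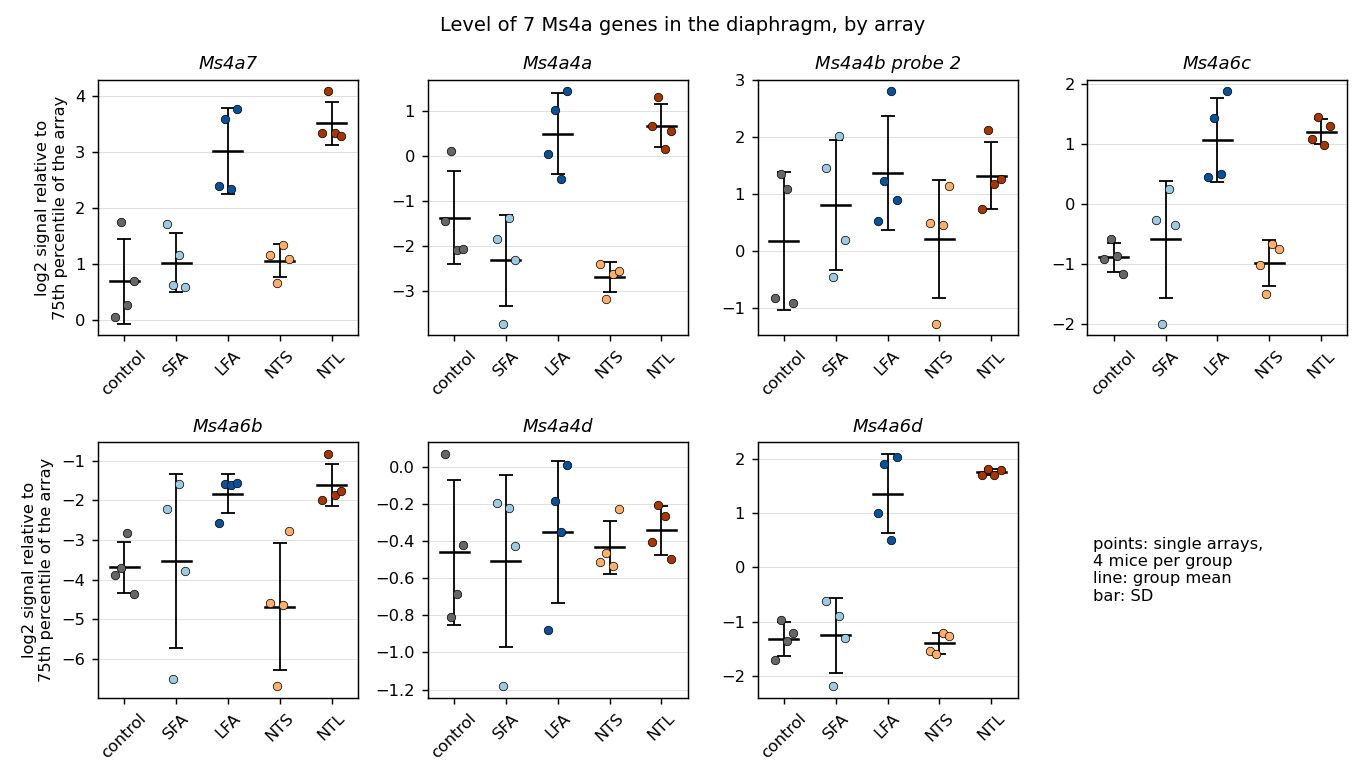
Level of 7 of the genes on each array, as log2 signal relative to the array's 75th percentile, for the 5 groups of 4 mice (points: arrays; line and bar: mean and SD; Ms4a4b by probe 2). The LFA and NTL arrays of Ms4a6d, Ms4a6c and Ms4a7 lie above all arrays of the other groups, while the Ms4a4d arrays of all groups lie between -1.18 and 0.07.

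Ms4a6d had the smallest standard error relative to its change. Its level was -1.72, -0.98, -1.37 and -1.22 in the control mice, -0.62, -2.20, -0.90 and -1.30 in SFA, and -1.53, -1.60, -1.21 and -1.26 in NTS. In LFA it was 1.0, 1.91, 0.50 and 2.03, and in NTL 1.70, 1.82, 1.71 and 1.80. All 8 long-fiber arrays lay above all 12 others, and the 4 NTL mice lay between 1.70 and 1.82. The change against control was 2.68 ± 0.34 (SE) in LFA, or 6.41-fold (adjusted p = 0.000381), and 3.08 ± 0.34 in NTL, or 8.45-fold (adjusted p = 5.9e-05).

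Ms4a7 was also highest in the long-fiber groups. The control mice were at 0.06, 1.76, 0.26 and 0.69, SFA at 1.71, 0.63, 1.17 and 0.58, and NTS at 1.15, 0.65, 1.34 and 1.10. LFA mice were at 2.38, 3.60, 2.33 and 3.78, and NTL mice at 3.33, 4.08, 3.34 and 3.29. No long-fiber array overlapped the other groups, although control replicate 2 stood above the other 3 control arrays. The gene rose by 2.33 ± 0.40 in LFA (5.03-fold, adjusted p = 0.00423) and by 2.82 ± 0.40 in NTL (7.06-fold, adjusted p = 0.000395).

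Ms4a6c followed with smaller changes. Its level was -0.92, -0.58, -0.87 and -1.17 in control, -0.26, -2.0, 0.25 and -0.35 in SFA, and -1.03, -1.51, -0.67 and -0.74 in NTS. It was 0.45, 1.44, 0.49 and 1.88 in LFA and 1.08, 1.44, 0.99 and 1.30 in NTL. SFA held both the lowest array and the highest array outside the long-fiber groups. The change was 1.95 ± 0.40 in LFA (3.87-fold, adjusted p = 0.0134) and 2.09 ± 0.40 in NTL (4.25-fold, adjusted p = 0.00433).

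Ms4a4a was the member with the lowest levels after short fibers relative to control. The control mice were at -1.44, 0.10, -2.08 and -2.06, SFA at -1.84, -3.72, -1.39 and -2.32, and NTS at -2.39, -3.16, -2.61 and -2.55. LFA mice were at 0.04, 1.02, -0.52 and 1.43, and NTL mice at 0.66, 1.31, 0.16 and 0.55. Every NTS array lay below every control array, a separation whose share over all probes was not computed. Control replicate 2 overlapped LFA. The change was 2.04 ± 0.54 in NTL (4.11-fold, adjusted p = 0.0265) and 1.86 ± 0.54 in LFA (adjusted p = 0.0558, not called). Without control replicate 2 the LFA change was 2.35 and was called, as it also was without SFA replicate 2, LFA replicate 3 or NTS replicate 4. The NTL call was lost with the slide as a block (1.90 ± 0.61, adjusted p = 0.0924) and without control replicates 1, 3 or 4 or NTL replicates 1, 2 or 4 (1.80 to 2.08, adjusted p 0.0579 to 0.075). The difference from control was -1.31 ± 0.54 in NTS (adjusted p = 1.0) and -0.95 ± 0.54 in SFA (adjusted p = 0.999), and without control replicate 2 it was -0.82 and -0.46.

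**Figure D2:**
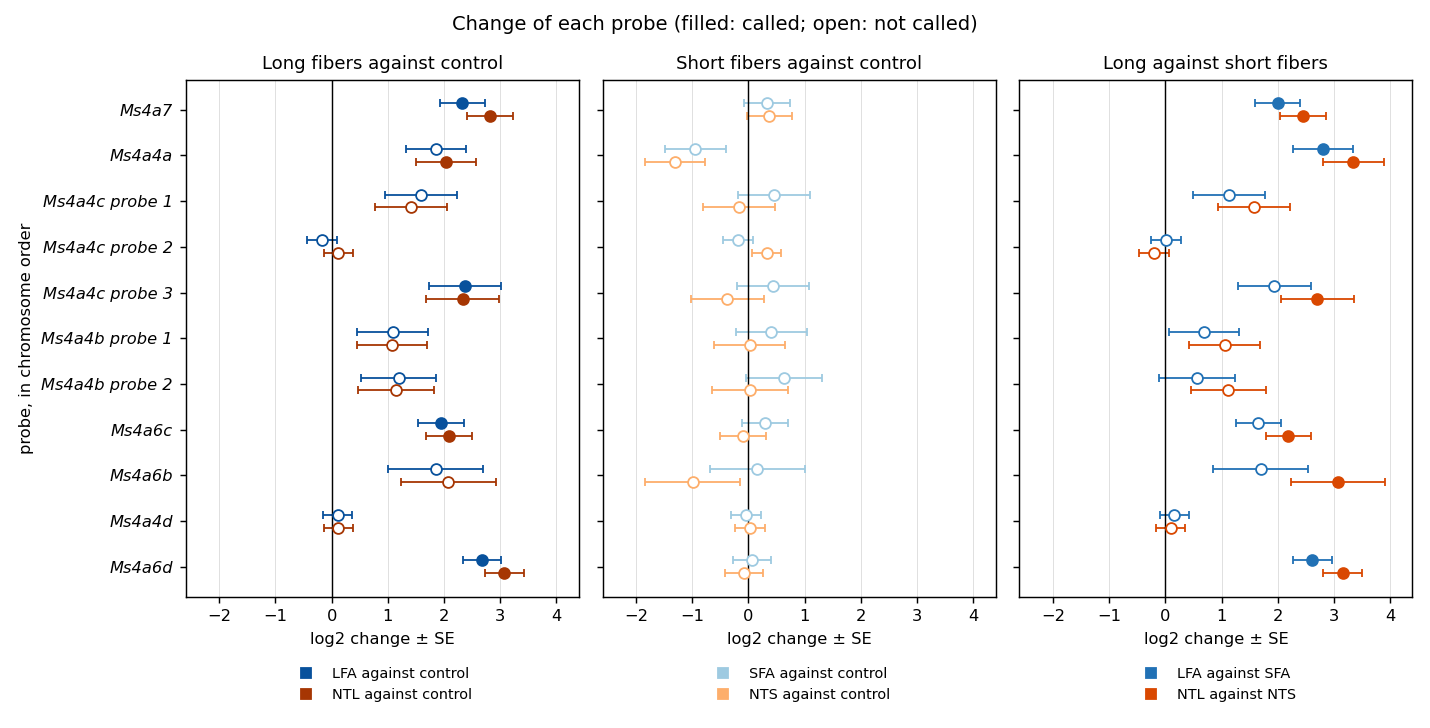
log2 change ± SE of each of the 11 probes, in chromosome order, for long fibers against control, short fibers against control and long against short fibers (filled: called; open: not called). Ms4a6d and Ms4a7 are called in all 4 comparisons of long fibers, and no probe is called for short fibers against control.

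The 3 probes of Ms4a4c disagreed. Probe 2, the brightest and so the one that stands for the gene, had means ± SD of 5.36 ± 0.36 in control, 5.19 ± 0.28 in LFA and 5.48 ± 0.13 in NTL (n = 4), and changes of -0.17 ± 0.26 and 0.12 ± 0.26. This is the probe with the TG repeat. Of the 110 probes on the array with a TG or CA repeat of at least 16 bases, all passed the filter and 0 were called in LFA and 0 in NTL against control. Probe 3, at chr19:11500973-11501032, was at -2.47, -0.59, -1.55 and -2.50 in control, -0.56, 1.04, 0.55 and 1.34 in LFA, and 0.09, 1.36, 0.21 and 0.55 in NTL. It was called in both, with 2.37 ± 0.65 (5.18-fold, adjusted p = 0.0446) and 2.33 ± 0.65 (5.04-fold, adjusted p = 0.0336). Probe 3 did not pass the unequal-variance test over the 5 groups that the paper's methods name (adjusted p = 0.106). Its SFA arrays ran from -2.74 to -0.145 and overlapped LFA, and its NTS arrays ran from -3.83 to -1.34. Probe 1, at chr19:11493486-11493545, was not called, with 1.60 ± 0.64 (adjusted p = 0.146) and 1.42 ± 0.64 (adjusted p = 0.189). Probes 1 and 3 deviated together from their group means over the 20 arrays (r = 0.906), and probe 2 had r = 0.388 and 0.281 with them. With probe 3 in place of probe 2, a choice made after the values were seen, 4 genes were called in LFA and 5 in NTL against control.

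**Figure D3:**
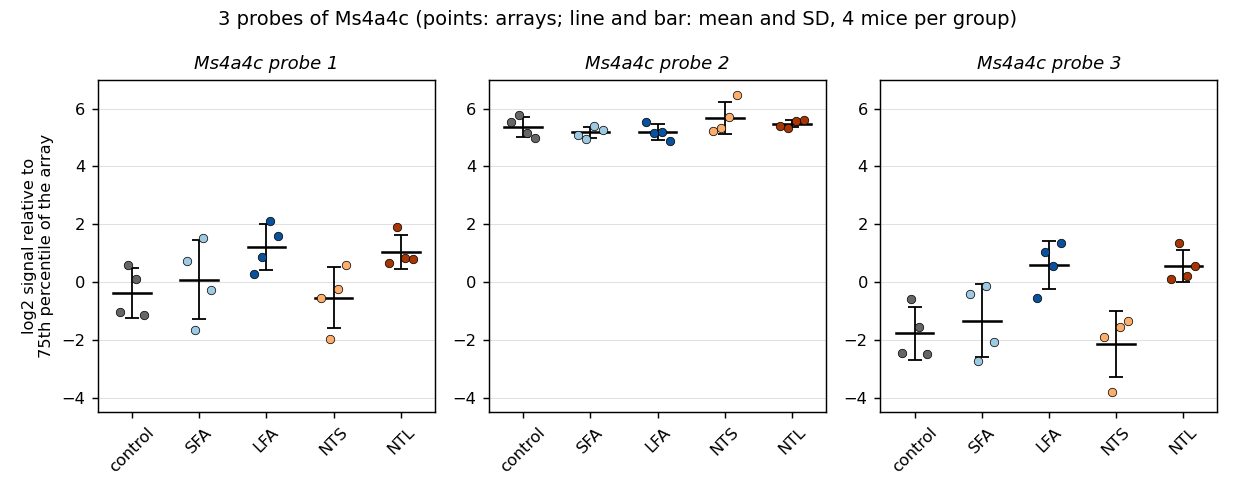
Level of the 3 Ms4a4c probes on each array, on the same axis (points: arrays; line and bar: mean and SD of 4 mice). Probe 3 lies higher in LFA and NTL than in control, and the arrays of probe 2 lie between 4.88 and 6.47 in all groups.

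Ms4a6b and Ms4a4b had higher means in the long-fiber groups than in control, without a call. Ms4a6b was at -3.88, -3.70, -2.82 and -4.38 in control, -2.58, -1.58, -1.62 and -1.57 in LFA, and -1.99, -0.84, -1.87 and -1.76 in NTL. In SFA it was at -2.23, -6.51, -1.60 and -3.80 and in NTS at -4.60, -6.69, -4.65 and -2.79, and the lowest array of SFA and 2 of NTS were not well above background. Its LFA and NTL arrays lay above all control arrays, but the short-fiber groups spread widely. The changes were 1.85 ± 0.84 (adjusted p = 0.192) and 2.08 ± 0.84 (adjusted p = 0.141), or 0.81 ± 0.30 and 0.95 ± 0.30 with normexp background correction, also without a call. Ms4a4b, by probe 2, had means ± SD of 0.17 ± 1.22 in control, 0.80 ± 1.14 in SFA, 0.20 ± 1.04 in NTS, 1.36 ± 1.0 in LFA and 1.32 ± 0.58 in NTL, and the groups overlapped. Its differences from control were 1.19 ± 0.68 in LFA (adjusted p = 0.288) and 1.15 ± 0.68 in NTL (adjusted p = 0.321), and those of its other probe 1.09 and 1.07, also without a call.

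Ms4a4d was called in no comparison. Its means ± SD were -0.46 ± 0.39 in control, -0.51 ± 0.46 in SFA, -0.43 ± 0.14 in NTS, -0.35 ± 0.38 in LFA and -0.34 ± 0.13 in NTL. The change was 0.11 in LFA (95% confidence interval -0.44 to 0.66) and 0.12 in NTL (-0.43 to 0.67), so that a 2-fold rise lay outside both intervals.

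Long fibers were also compared with short fibers of the same material. In LFA against SFA, Ms4a4a rose by 2.81 ± 0.54 (7.01-fold, adjusted p = 0.0124), Ms4a6d by 2.62 ± 0.34 (adjusted p = 0.000739) and Ms4a7 by 2.0 ± 0.40 (adjusted p = 0.017), which makes 3 of 8 genes where 1.16% of all probes were called. Ms4a6c differed by 1.65 ± 0.40 and missed the threshold (adjusted p = 0.0545). With only these 2 groups in the model, 0 members were called, where 171 of all probes (0.46%) were. Adjusted p then ran from 0.0564 for Ms4a6d to 0.104 for Ms4a7 among the 3 genes. In NTL against NTS, 5 of 8 genes were called where 7.6% of all probes were. Ms4a4a rose by 3.35 ± 0.54, the largest change of the members (10.2-fold, adjusted p = 0.000738), Ms4a6d by 3.16 ± 0.34 (adjusted p = 2.8e-05), Ms4a7 by 2.45 ± 0.40 (adjusted p = 0.000889) and Ms4a6c by 2.19 ± 0.40 (adjusted p = 0.00238). The fifth call was Ms4a6b, with 3.07 ± 0.84 (adjusted p = 0.0298), but 2 of its 4 NTS arrays were not well above background, so that the size of this difference is uncertain. It was 1.02 ± 0.30 with normexp background correction, and the call was lost with the slide as a block (adjusted p = 0.169) and without any 1 of 7 of the 8 arrays compared (2.40 to 3.20), NTS replicate 4 being the exception. Ms4a4c probe 3 was called in NTL against NTS (2.71 ± 0.65, adjusted p = 0.014) and not in LFA against SFA (1.94 ± 0.65, adjusted p = 0.213). Ms4a4a was thus called in LFA against SFA but not in LFA against control, and its SFA and NTS means, -2.32 ± 1.01 and -2.68 ± 0.33 (SD), lay under the control mean of -1.37 ± 1.03.

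The arrays did not overlap for 4 of 8 genes in LFA against control, where 16.3% of all probes had no overlap, and for 5 in NTL against control, where 20.2% had none. They did not overlap for 4 genes in LFA against SFA (8.98% of all probes) and for 5 in NTL against NTS (16%). The share of all probes with every long-fiber array above every other array, as for Ms4a6d, was not computed. Neither the direct comparison of LFA with NTL, whose doses differ, nor the test of whether length acted differently in asbestos and in nanotubes called a member (0 of 8 genes in each, where 0% of all probes were called in the former and 0% in the latter). In LFA against NTL the members' changes ran from -0.49 ± 0.40 (Ms4a7, 95% confidence interval -1.33 to 0.36) to 0.04 ± 0.68 (Ms4a4b, -1.38 to 1.46). For the length effects the largest difference was that of Ms4a6b, -1.38 ± 1.19 (95% confidence interval -3.88 to 1.13), and 0 of the 8 genes passed an unadjusted p of 0.05 in either test, against 572 and 1273 of all probes.

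The arrays lay on 3 slides, and no slide held all groups in equal number. NTL and NTS met on 1 slide only, with 1 NTL and 2 NTS arrays, where the differences were 3.44 for Ms4a4a, 3.27 for Ms4a6d, 2.43 for Ms4a7, 2.34 for Ms4a6c and 3.66 for Ms4a6b. With the slide as a block, 756 of all probes were called in NTL against NTS in place of 2807, and 5500 were called without NTS replicate 4. Within slides Ms4a6d differed by 2.35 to 3.27 between LFA and control and by 3.05 to 3.14 between NTL and control, and Ms4a7 by 1.48 to 3.34 and by 2.43 to 3.31. The within-slide differences of Ms4a6c were 1.2 to 2.35 in LFA and 1.83 to 2.12 in NTL, and those of Ms4a4a 0.71 to 3.10 and 1.33 to 2.75. For Ms4a4a, SFA and control differed by -2.11 on the slide with control replicate 2 and by 0.23 on the other slide that held both.

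Within groups some members varied together more closely than others. Deviations from the group means over the 20 arrays correlated at 0.974 between Ms4a4c probe 1 and Ms4a4b probe 1 and at 0.894 between Ms4a4c probe 1 and Ms4a6b, while those of Ms4a6d and Ms4a6c correlated at 0.862, Ms4a7 and Ms4a4a at 0.811 and Ms4a7 and Ms4a6d at 0.798. The values were lower for Ms4a4b probe 2 with Ms4a6d (0.263) and with Ms4a7 (0.377), while Ms4a6c correlated with Ms4a6b at 0.784 and with Ms4a4c probe 3 at 0.796, so that the members did not fall into separate sets. The arrays share their reference level, and these correlations are given as a description. SFA replicate 2 and NTS replicate 2 were the lowest arrays of their groups for Ms4a4a, Ms4a6c, Ms4a6b, Ms4a4b and Ms4a4c probes 1 and 3, and LFA replicate 3 was the highest of its group for both Ms4a4b probes but the lowest for Ms4a4a, Ms4a6d and Ms4a7.

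**Figure D4:**
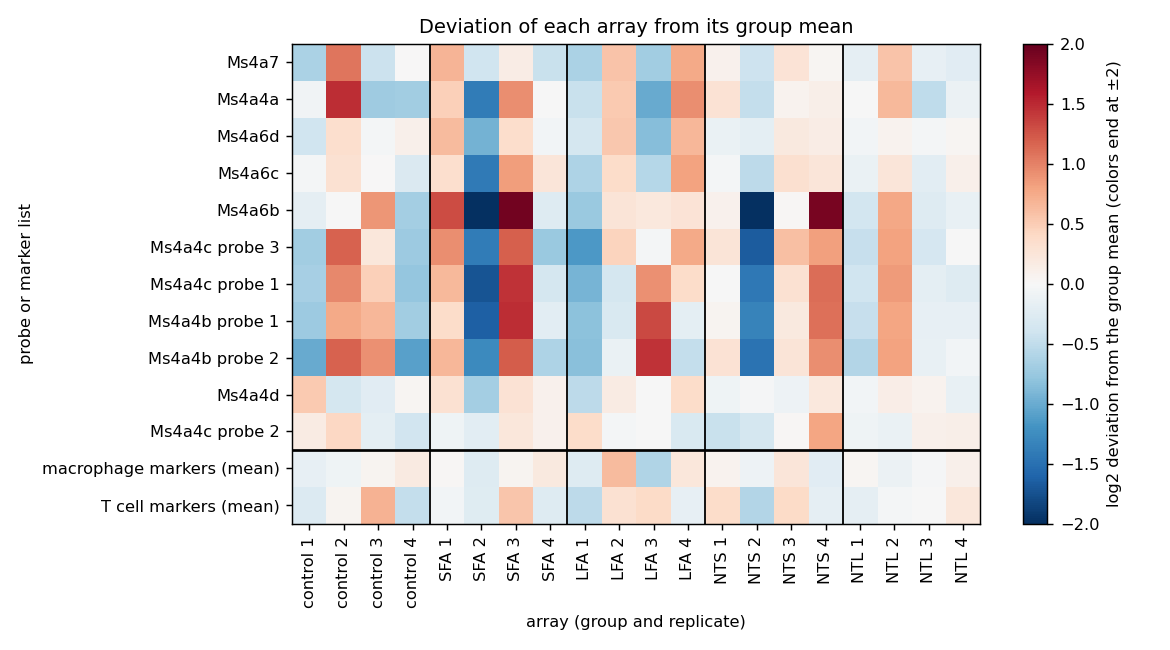
Deviation of each array from its group mean for the 11 probes and for the mean of the macrophage and T cell marker lists, in log2 units (columns: arrays; colors end at ±2). LFA replicate 3 is high for the Ms4a4b probes and low for Ms4a7, Ms4a4a, Ms4a6d and Ms4a6c.

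The genes outside the family whose levels were most like a member over the 20 arrays differed between members. For Ms4a7 they were Csf1r, the receptor of the macrophage growth factor CSF1 (r = 0.978), Crlf2 (0.977) and Gm5086 (0.971). For Ms4a6d they were the chemokine Ccl8 (0.98), Cd84 (0.978) and Trem2, a lipid receptor of macrophages (0.977), and for Ms4a6c the sterol hydroxylase Ch25h (0.982), Bcl2a1c (0.968) and the interleukin receptor Il10ra (0.968). For Ms4a4a they were the kinase Fes (0.957), Prrx2 (0.943) and the chemokine Ccl7 (0.942). For Ms4a4b probe 2 they were Skap1 (0.982), Lck, the kinase of the T cell receptor (0.975), and Txk (0.968), and for Ms4a4c probe 1 Txk (0.946), Il2rb (0.941) and Cd3d (0.94), a subunit of the T cell receptor complex. For Ms4a4c probe 3, the Ms4a4c probe that was called, they were Unc93b1 (0.966), Cotl1 (0.966) and the interferon-induced Ifi204 (0.965). Ms4a6b was most like the interferon-induced Gbp8 (0.95), Stk17b (0.935) and Herc6 (0.933). Ms4a4d had no gene above 0.811 (Capza2). These values include the differences between groups. By deviations from the group means, r was 0.693 to 0.782 for the genes named for Ms4a6d and 0.788 to 0.853 for those of Ms4a4a. It was 0.852 to 0.933 for those of Ms4a7, 0.85 to 0.923 for those of Ms4a6c and 0.976 to 0.981 for those of Ms4a4b probe 2.

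Marker lists of cell types were measured on the same arrays. Of 15 macrophage markers, 10 were called higher in LFA and 11 in NTL against control, with medians of 1.76 and 2.25, and their summed signal was 92.0 to 141 times the array reference in control, 104 to 157 in SFA, 90.6 to 159 in NTS, 178 to 341 in LFA and 293 to 330 in NTL. None of the 13 T cell markers was called in LFA and 1 (Cd5) was in NTL, with medians of 0.56 and 1.09 and summed signals of 9.71 to 19.6 in control, 14.4 to 29.8 in LFA and 20.1 to 27.4 in NTL. Of 9 B cell markers, 0 were called in LFA and 1 in NTL, and of 6 NK cell markers tested 1 in each. Of 5 monocyte markers 3 were called higher in each, with medians of 1.59 and 1.76. Of 10 granulocyte markers 1 was called in LFA and 0 in NTL. Of 14 skeletal muscle markers, 3 were called lower in LFA and 6 in NTL. Among mast cell, mesothelial and liver markers no gene was called in either. Of the macrophage markers, only Itgam and Cd163 had a negative difference in LFA (-0.80 and -1.10, not called). Deviations from the group means correlated between the macrophage list and Ms4a6d at 0.708, Ms4a6c at 0.552, Ms4a7 at 0.466 and Ms4a4a at 0.411. For Ms4a4c probe 3 they correlated at 0.245 with the macrophage, 0.621 with the T cell and 0.709 with the NK cell list. Macrophage and monocyte markers thus rose in the same comparisons as the members, and the part of any cell type in the members' changes was not tested.

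Other members of the family and reported partners of MS4A proteins were read from lists. Of 12 other family genes measured, 8 passed the filter and 4 were called higher in both LFA and NTL against control, with none lower. Ms4a8a, a macrophage gene of the same cluster, rose by 1.98 ± 0.28 in LFA (adjusted p = 0.000793) and 2.22 ± 0.28 in NTL (adjusted p = 0.000149), Ms4a14 by 1.99 ± 0.46 and 2.42 ± 0.46, and the distant relatives Tmem176a by 1.67 and 1.76 and Tmem176b by 1.13 and 1.28. Ms4a1, the B cell gene, differed by 0.51 and 0.15 without a call. Of the 8 partners, 5 were called higher in both, among them Trem2 (3.54 ± 0.39 in LFA and 4.34 ± 0.39 in NTL), Clec7a (3.10 and 3.57) and Vsig4, a complement receptor of resident macrophages (4.23 and 3.67). Kit, Syk and Card9 were not called against control.

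The flanks of the cluster were examined within 500 kb of the outermost member probes. Of 27 genes outside the family there, 16 passed the filter, 2 were called higher in LFA and 3 in NTL against control, and none lower, with medians of -0.05 and -0.12. Oosp1, an oocyte secreted protein gene whose probe lies at chr19:11742163-11742222 beyond Ms4a6d, rose by 3.31 ± 0.54 in LFA (adjusted p = 0.00294) and 3.54 ± 0.54 in NTL (adjusted p = 0.000776), with a mean level of -2.41 in control. Its neighbor Plac1l rose by 2.29 ± 0.64 in NTL (adjusted p = 0.035) and had a difference of 2.19 in LFA (adjusted p = 0.0576, not called). Slc15a3, a peptide transporter gene at the other end of the window, rose by 2.41 ± 0.47 and 2.67 ± 0.47. The other neighbors that passed the filter, from Tmem132a to Osbp, were not called.

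Promoters were read from RefSeq on GRCm38.p6, where all of the genes but Ms4a6d had an entry and Ms4a7 had 2 starts. Both strands of the 250 bases before each start were searched for GAGGAA (PU.1), TGANTCA (AP-1), TTCNNNGAA (STAT), GAAANNGAA (IRF), TTGCNNAA (C/EBP) and TGTGGT (RUNX), which 23.3%, 6.75%, 7.02%, 7.13%, 9.56% and 14% of 32851 promoters of that length held. GAAANNGAA was present for Ms4a7 (both starts), Ms4a6c and Ms4a6b, and GAGGAA for Ms4a4c and Ms4a4b, while none of the motifs was found for Ms4a4a. The other matches were TGANTCA at a start of Ms4a7, TGTGGT for Ms4a4c and TTGCNNAA for Ms4a4d. The pairs Ms4a6c and Ms4a6b and Ms4a4c and Ms4a4b carry the motif in like surroundings, shown with the motif in capitals and 20 bases on each side, all on the plus strand (chr19:11469215-11469263, chr19:11518333-11518381, chr19:11407580-11407625 and chr19:11443474-11443519).
Ms4a6c: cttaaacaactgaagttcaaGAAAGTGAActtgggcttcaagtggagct
Ms4a6b: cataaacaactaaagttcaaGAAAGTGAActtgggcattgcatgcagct
Ms4a4c: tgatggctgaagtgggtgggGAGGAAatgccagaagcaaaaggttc
Ms4a4b: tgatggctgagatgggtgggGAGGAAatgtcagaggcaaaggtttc
The first pair was identical at 41 of 49 bases and the second at 40 of 46. Over the 250 bases, Ms4a6c and Ms4a6b shared an unbroken stretch of 48 bases, and Ms4a4c and Ms4a4b one of 20 bases, against at most 9 for the pair that came next. The match is a description of letters and was not tested for binding.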

How the data were processed

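Gene expression in the diaphragm was measured on 20 one-color Agilent 60K mouse arrays, 1 for each mouse. The authors used Cy3 as the dye and deposited the scanner output (Agilent Feature Extraction 10.7.3.1), in which the signal of a spot is a background-subtracted intensity. They also deposited a table of normalized log2 values from GeneSpring with 1 mean per group, whose baseline is not stated and which was used as an alternative for changes only.

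Outlier spots (92 to 204 per array) were left out, 0 spots were saturated, and 59305 noncontrol spots were averaged into 55681 probes. Levels are log2 signals minus the log2 of the array's own 75th percentile. Probes well above background on at least 4 of 20 arrays were tested in 1 limma 3.58.1 model (R 4.3.3) over all groups, with Benjamini-Hochberg adjustment over 36920 probes. The same code was tested on 20 simulated arrays of the 5 groups, with changes of at least 2 log2 units in size planted in LFA. In LFA against control it called 139 of 200 changed probes and 11 unchanged probes, of 36920 probes in all. No further file columns were left aside (0 without a sample or group). Tables were made in Python 3.11.15 (pandas 2.3.3, numpy 2.4.6, scipy 1.17.1) and figures with matplotlib 3.10.9. No 2 arrays were copies (correlations 0.909 to 0.985). Mice, not arrays of 1 mouse, are the replicates, and their number limits the precision.

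The members and the gene lists were chosen with earlier results of these data known. Named were all members with all probes, measured genes of the lists, genes within 500 kb, and the 3 genes most like each member; the genes most like Ms4a4b, Ms4a4c probes 1 and 3 and Ms4a4d were added after the values were seen. Of the 11 probe accessions, 9 were found in the GRCm38.p6 gene table, and all 8 symbols were. Alternatives were another background correction, quantile normalization, other filters, the mean of a gene's probes and the authors' table. Others were a slide or replicate block, only the groups compared, each array left out and the methods' test over the 5 groups.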

Additional observations from a re-analysis of the deposited data

Results flagged for a closer look

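Of 55 sets of 4 arrays (11 probes in 5 groups), 3 held an array far from the other 3, by a test that marks about 1 in 20 sets by chance. NTL replicate 2 stood at 4.08 for Ms4a7, where the other NTL arrays lay between 3.29 and 3.34, and at 1.90 for Ms4a4c probe 1, where the others lay between 0.65 and 0.84. LFA replicate 1 stood at -2.58 for Ms4a6b, where the others lay between -1.62 and -1.57.

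Ms4a4a lay on opposite sides of the control mean after short and long fibers. All SFA arrays lay below the control mean, by -0.95 on average, and all LFA arrays above it, by 1.86. All NTS arrays lay below it, by -1.31 on average, and all NTL arrays above it, by 2.04. Whether the effects against control differ is the direct comparison of long with short fibers, which called the gene for both materials (2.81 ± 0.54 and 3.35 ± 0.54). Neither short fiber passed the threshold against control (adjusted p = 0.999 and 1.0). The control mean was raised by replicate 2, which stood at 0.10 where the others lay between -2.08 and -1.44. Without it the differences were -0.46 in SFA and -0.82 in NTS, and SFA and control differed by 0.23 on the slide that held both without control replicate 2.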

How the results depend on the processing

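Over the alternatives, the number of member genes called ran from 2 to 4 in LFA against control and from 3 to 5 in NTL against control. In NTL against NTS it ran from 4 to 5, or was 6 with probe 3 standing for Ms4a4c. It was 0 throughout in SFA and NTS against control, LFA against NTL and the test of length effects. In LFA against SFA it fell from 3 to 0 with only those 2 groups in the model. When each array was left out in turn it ran from 1 to 4. It was 1 without SFA replicate 2, LFA replicate 2 or LFA replicate 4. Of all probes, 429 were called in that comparison, 171 with only those groups and 155 to 530 when arrays were left out. The methods' test over the 5 groups and limma's joint test of the fiber groups against control each passed 4 of 8 genes. Both also required a change from control of at least 2-fold in a fiber group. Of all 36920 probes tested, 1092 passed the methods' test and 2175 passed limma's.

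Ms4a6d kept its calls under all alternatives in 3 comparisons and lost only that of LFA against SFA, with only these groups in the model. Ms4a7 kept its calls in NTL against control and NTL against NTS, lost that in LFA against control with only these groups (adjusted p = 0.0533), and lost that in LFA against SFA with the slide block and without SFA replicates 2 or 4 or LFA replicates 2 or 4 (1.75 to 2.23 over all alternatives). Ms4a6c lost its LFA call without LFA replicate 2 (adjusted p = 0.0524) and gained one in LFA against SFA under 6 alternatives. The NTL call of Ms4a4a was lost with the slide block and without control replicates 1, 3 or 4 or NTL replicates 1, 2 or 4 (1.74 to 2.53 over all alternatives), and its call in LFA against SFA without SFA replicate 2 or LFA replicates 2 or 4. The call of Ms4a6b in NTL against NTS was lost with the slide block and without any 1 of 7 of the 8 arrays compared. Without LFA replicate 3, the Ms4a4b difference of 1.19 was 0.71. The cause was not tested.

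The sign of Ms4a4c turned with the probe. In LFA against control it was 1.60 by probe 1, 2.37 by probe 3, 1.27 by the mean of the probes and 0.12 after quantile normalization. In NTL against NTS it was 1.58, 2.71, 1.36 and 0.26 in the same order, and -0.35 to 0.061 when arrays were left out. Values near 0 also turned when arrays were left out, with -0.0073 to 0.26 for Ms4a4c in NTL against control, -0.11 to 0.12 for it in LFA against SFA, -0.0093 to 0.29 for Ms4a4d in LFA against control and -0.070 to 0.33 for it in LFA against SFA. 

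Replicate numbers were not treated as pairs of mice. Deviations of same-numbered arrays correlated above 0.1 in 14 of 40 pairs, with r from -0.676 to 0.689. The median r was -0.091, against -0.008 for arrays with other numbers. This cannot settle whether the numbers mark pairs, since other-numbered pairs above 0.1 were not counted. With the replicate block, 3 genes were called in LFA against control, 4 in NTL against control, 3 in LFA against SFA and 5 in NTL against NTS, as without it. Of all probes, 3.30%, 6.04%, 0.89% and 6.73% were called with that block, in the same order. The authors' table gave changes of the members that differed by at most 0.047 from those here, and no test, since it holds group means. Ms4a6b has no value with the filter of all 20 arrays well above background.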
